A study of Mus musculus with 10 samples.

Results

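The genes described here are 34 mouse genes of glucose metabolism and of the response to low oxygen, measured in regulatory T (Treg) cells from tumours and from lymph nodes. They were named from known biology, but earlier results of these data were known when they were chosen. They comprise 4 transporters of glucose or lactate, 16 glycolytic enzymes, 3 regulators of glycolytic flux, 3 genes of the hypoxia-inducible factor (HIF) and its oxygen sensors, and 8 HIF target genes outside glycolysis. All 34 were present among the 55291 genes of the deposited count table, and all 34 were among the 20068 genes with enough counts to be tested.

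The study sequenced RNA from 10 libraries of sorted Treg cells. Hepa1-6 (4 libraries) stands for Treg cells sorted from tumours of a mouse hepatoma line, collected 23 days after injection under the skin. E.G7 (2 libraries) stands for Treg cells from tumours of a mouse T lymphoma line derived from EL4 and carrying ovalbumin, collected 21 days after injection. LN (4 libraries) stands for Treg cells from lymph nodes of mice without tumours. All mice were of the Foxp3YFP-cre genotype, in which a fluorescent protein and the Cre recombinase are expressed from the Foxp3 locus, and the labels name no treatment other than the tumour injection. The tumour line, the day of collection and the tissue of origin change together with the group, so that their shares in a difference cannot be told apart. The labels do not say whether libraries of a group came from separate mice, so that p-values capture how far these libraries vary, and that variation may be technical only.

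Glycolysis breaks glucose down to pyruvate in the cytosol, and lactate dehydrogenase turns pyruvate into lactate when the pyruvate is not burned in mitochondria. HIF-1 is a transcription factor whose alpha subunit is marked for destruction by oxygen-dependent prolyl hydroxylases, so that it builds up when oxygen is low and switches on genes for glucose uptake, glycolysis and lactate export. Activated T cells also use this pathway when oxygen is plentiful, and Treg cells are known to rely on glycolysis less than effector T cells do.

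Total counts per library were 26224286 to 26665325 in Hepa1-6, 26585350 and 26663336 in E.G7, and 22665563 to 24472849 in LN. Foxp3, the defining transcription factor of Treg cells, was detected in all libraries, with a mean of 82.0 CPM in Hepa1-6 libraries and 50.2 CPM in E.G7 libraries, against 109 CPM in LN libraries, and the summed level of 5 Treg markers was 3298 to 3439 CPM in Hepa1-6 libraries and 2518 to 2608 CPM in E.G7, against 2032 to 2204 CPM in LN. Of these 5, Ctla4 and Tnfrsf18 rose in both tumours, Foxp3 and Ikzf2 fell in both, and Il2ra fell in E.G7, and Ctla4 alone averaged 1409.5 CPM in Hepa1-6 libraries and 1261 CPM in E.G7, against 410.2 CPM in LN. CPM are counts scaled to a common library size, with factors from the trimmed mean of M-values (TMM). The summed level of 14 pan T cell genes was 8652 to 8807 CPM in Hepa1-6 libraries and 8216 to 8286 CPM in E.G7, against 9436 to 10051 CPM in LN. Transcripts of other cell types were also present in the tumour libraries. The 15 hepatoma and hepatocyte markers summed to 2778 to 2821 CPM in Hepa1-6 libraries and 118 to 122 CPM in E.G7, against 7.79 to 10.2 CPM in LN, and Alb averaged 370.4 CPM in Hepa1-6 libraries and 0.0554 CPM in E.G7 libraries, against 0.0389 CPM in LN libraries. In E.G7 nearly all of that sum was Trf (115 CPM in E.G7 against 1.82 CPM in LN), which is also expressed outside the liver. Of the 9 markers tested, 9 rose in Hepa1-6, while 5 rose and 1 (Afp) fell in E.G7. The 14 macrophage and neutrophil markers summed to 3828 to 4125 CPM in Hepa1-6 libraries and 738 to 769 CPM in E.G7, against 25.1 to 36.9 CPM in LN, and all 14 were called higher than LN in each tumour. The 10 CD8 T and NK cell markers summed to 493 to 528 CPM in Hepa1-6 libraries and 135.3 to 138 CPM in E.G7 libraries, against 29.8 to 34.01 CPM in LN libraries, and 9 of the 10 rose in Hepa1-6 and 8 in E.G7. The 12 stroma and endothelium markers summed to 1121 to 1211 CPM in Hepa1-6 libraries and 191 to 223 CPM in E.G7 libraries, against 225 to 242 CPM in LN libraries. The LN sum was nearly all Pecam1, which T cells also express and which averaged 72.6 CPM in Hepa1-6 libraries and 78.7 CPM in E.G7, against 228 CPM in LN. Pecam1 fell in both tumours, while 10 of the 12 markers rose in Hepa1-6 and 11 in E.G7. The 7 thymocyte and lymphoma markers summed to 192 to 203 CPM in Hepa1-6 libraries and 219 to 228 CPM in E.G7, against 20.1 to 21.3 CPM in LN. In Hepa1-6 this sum was nearly all Cd8a and Cd8b1 (130.3 and 66.5 CPM), which are also in the CD8 T cell list. Dntt averaged 2.84 CPM in Hepa1-6 libraries and 46.6 CPM in E.G7 libraries, against 2.30 CPM in LN libraries, and Trap1a, a tumour antigen gene silent in most adult tissues, averaged 0.0516 CPM in Hepa1-6 libraries and 127 CPM in E.G7 libraries, against 0.0488 CPM in LN libraries. The 5 erythroid markers summed to 33.8 to 39.0 CPM in Hepa1-6, 9.03 to 9.05 CPM in E.G7 and 1.93 to 4.499 CPM in LN. Markers with no count in any library of a group were Serpina1a and Rag1 in Hepa1-6, Ttr, Serpina1a, Fgb, Rag1 and Rag2 in E.G7, and Krt19, Apob, Serpina1a, Serpina1b, Hnf4a, S100a9, Ncr1, Rag1, Rag2, Col3a1, Dcn and Vwf in LN. These markers move with the same groups as the genes described below, and their part in the results was not tested.

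Most of the 34 genes were higher in tumour Treg libraries than in LN libraries. In Hepa1-6, 30 of the 34 rose and 3 fell (Ldhb, Pdk1 and Ddit4), where 37.0% of all genes tested rose and 31.1% fell (68.0% in either direction). In E.G7, 27 rose and 5 fell (Ldhb, Pdk1, Pfkfb4, Bnip3l and Ddit4), where 32.7% of all genes tested rose and 27.2% fell (59.9% in either direction). A gene is said to rise or fall, or is called, where the Benjamini-Hochberg adjusted p of the edgeR quasi-likelihood test, adjusted over all genes tested, was under 0.05. The median log2 fold change of the 34 genes was 1.88 in Hepa1-6 and 1.45 in E.G7, beside 0.04 and 0.01 for all genes tested. Changes of at least 2-fold were frequent among the 34: 26 in Hepa1-6 and 22 in E.G7 were called and at least 2-fold higher, beside 23.5% and 19.1% of all genes, while 1 (Ldhb, in Hepa1-6) was called and at least 2-fold lower in either tumour, beside 14.3% of all genes in Hepa1-6 and 14.2% in E.G7. Libraries of Hepa1-6 lay wholly above those of LN for 29 genes and wholly below for 3, beside 34.1% and 27.6% of all genes. Libraries of E.G7 lay wholly above those of LN for 27 genes and wholly below for 5, beside 36.6% and 32.6% of all genes. The 2 tumour groups share the 4 LN libraries as their control, so their counts against LN do not stand for separate evidence. In bulk libraries, fewer cells of a type and less RNA per cell cannot be told apart.

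**Figure D1:**
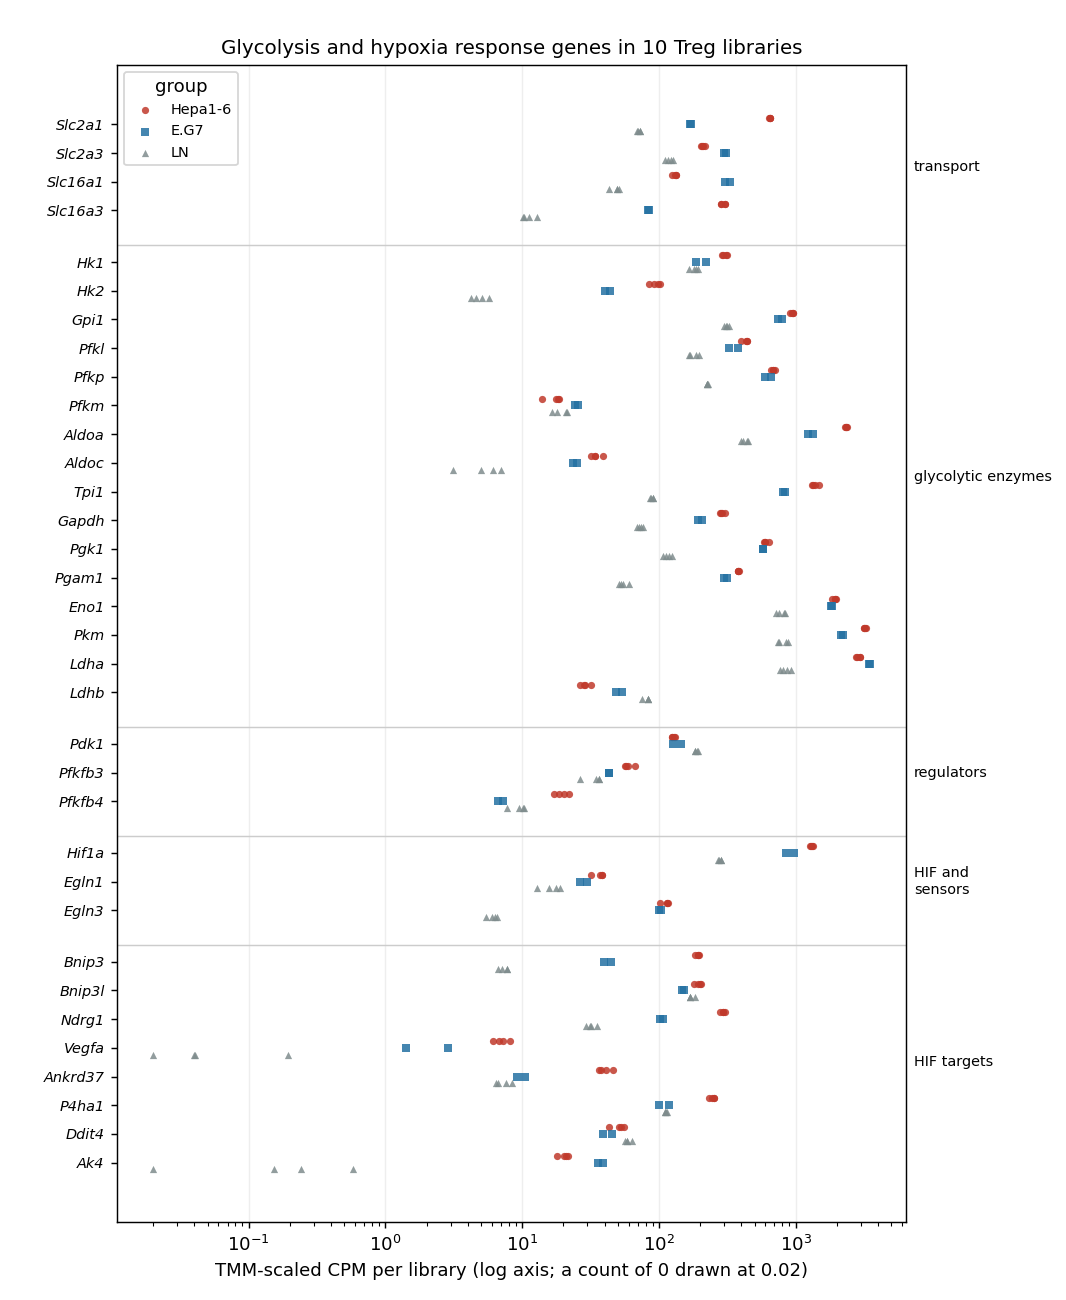
TMM-scaled CPM (log axis) of the 34 genes in each of the 10 libraries, grouped by role; circles are Hepa1-6, squares E.G7 and triangles LN, and 1 symbol is 1 library. Most genes lie to the right in tumour libraries, as Tpi1 with 1325 to 1481 CPM in Hepa1-6 libraries and 806 to 841 CPM in E.G7 against 85.9 to 90.7 CPM in LN, while Ldhb and Pdk1 lie to the left.

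Stretches of DNA around an annotated start of 5 of these genes are shown because HIF is known to bind the letters ACGTG or GCGTG. These genes are known HIF targets, of which 4 rose and 1 (Pdk1) fell in the tumour libraries. Sequences are from RefSeq (build GRCm38.p6), from 250 bases before to 50 bases after an annotated gene start, and run 5′ to 3′ on the gene's strand. Capitals mark ACGTG and GCGTG and, for the other strand, CACGT and CACGC, with overlapping matches joined.
Slc2a1 promoter (chr4:119108495-119108794, plus strand): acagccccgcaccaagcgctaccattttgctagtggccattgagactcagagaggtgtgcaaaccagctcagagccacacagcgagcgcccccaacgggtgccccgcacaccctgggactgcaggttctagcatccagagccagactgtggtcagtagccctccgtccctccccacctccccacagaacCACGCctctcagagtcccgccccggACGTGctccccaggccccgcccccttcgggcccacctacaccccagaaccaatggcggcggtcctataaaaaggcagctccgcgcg
Pgk1 promoter (chrX:106186850-106187149, plus strand): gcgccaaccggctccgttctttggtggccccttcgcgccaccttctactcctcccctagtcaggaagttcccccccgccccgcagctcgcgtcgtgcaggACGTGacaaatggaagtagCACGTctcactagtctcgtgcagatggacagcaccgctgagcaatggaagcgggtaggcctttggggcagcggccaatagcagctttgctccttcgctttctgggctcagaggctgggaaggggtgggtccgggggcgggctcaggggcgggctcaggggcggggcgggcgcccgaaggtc
Ldha promoter (chr7:46845554-46845853, plus strand): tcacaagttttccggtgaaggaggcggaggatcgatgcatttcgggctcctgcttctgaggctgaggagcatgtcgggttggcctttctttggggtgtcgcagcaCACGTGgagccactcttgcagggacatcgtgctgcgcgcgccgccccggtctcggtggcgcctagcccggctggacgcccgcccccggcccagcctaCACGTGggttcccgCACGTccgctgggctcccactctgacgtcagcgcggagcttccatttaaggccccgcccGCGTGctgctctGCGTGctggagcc
Bnip3 promoter (chr7:138909457-138909756, minus strand): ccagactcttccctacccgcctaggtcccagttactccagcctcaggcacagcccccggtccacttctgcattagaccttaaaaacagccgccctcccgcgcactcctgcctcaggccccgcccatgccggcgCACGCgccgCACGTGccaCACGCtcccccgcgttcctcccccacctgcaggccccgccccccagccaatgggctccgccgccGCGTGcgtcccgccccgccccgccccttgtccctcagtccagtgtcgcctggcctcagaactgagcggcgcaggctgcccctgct
Pdk1 promoter (chr2:71872974-71873273, plus strand): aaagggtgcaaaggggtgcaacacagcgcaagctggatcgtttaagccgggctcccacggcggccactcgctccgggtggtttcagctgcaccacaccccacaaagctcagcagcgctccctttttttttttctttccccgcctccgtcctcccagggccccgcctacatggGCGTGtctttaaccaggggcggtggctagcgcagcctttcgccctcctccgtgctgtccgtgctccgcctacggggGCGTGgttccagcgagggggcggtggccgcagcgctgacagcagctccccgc
The Slc2a1 and Pgk1 windows held 2 matches each, the Ldha window 7, the Bnip3 window 5 and the Pdk1 window 2, counting overlapping matches singly. For each of the 31 genes with an entry in the RefSeq table (Slc2a3, Bnip3l and Ndrg1 had none), 1 window was counted, that nearest the gene start. Of these windows, 25 held at least 1 match (80.6%) and 64.5% held at least 2. Hk1, Aldoa, Pkm and Vegfa had no match in the window counted but had a match in another window. The same letters occurred in 57.6% of 15626 windows of genes tested and in 43.8% of all 32851 windows, and 30.3% and 20.6% held at least 2. A gene can have several windows, so these shares are not counted in the same way as that of the 31. The motif contains a CG pair, so its frequency moves with the CG content of a window, and a match is not a binding site. The annotated start in the Ldha window lies 4329 bases downstream of the 5′ end of the gene in the deposited table, so that window lies inside the deposited gene.

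All 4 transport genes rose in both tumours, and Slc16a3 had the largest fold against LN of the 4 in each. Slc2a1 and Slc16a3 were higher in Hepa1-6 than in E.G7, whereas Slc2a3 and Slc16a1 were lower. Slc2a1 (chr4:119108711-119137983, plus strand, mm10) encodes GLUT1, the main glucose importer of activated T cells. In replicate order, Slc2a1 had 638, 648, 644 and 647 CPM in Hepa1-6 libraries and 172 and 168 CPM in E.G7 libraries, against 70.9, 69.3, 72.2 and 72.6 CPM in LN libraries. The Hepa1-6 libraries were highest, the LN libraries lowest, and no groups overlapped. Its log2 fold change against LN was 3.18 (SE 0.044, adjusted p = 8.3e-18) in Hepa1-6 and 1.26 (SE 0.049, adjusted p = 4.9e-12) in E.G7, and Hepa1-6 was 3.79-fold higher (adjusted p = 4.0e-13) than E.G7. The SE was derived from the log2 fold change and the F statistic of the test. Slc16a3 (chr11:120948480-120960868, plus strand) encodes MCT4, a lactate exporter and known HIF target. Slc16a3 had 303, 302, 286 and 283 CPM in Hepa1-6 libraries and 84.7 and 82.7 CPM in E.G7 libraries, against 10.1, 12.8, 11.3 and 10.3 CPM in LN libraries. The order of the groups was the same as for Slc2a1, with no overlap, and the log2 fold change against LN was 4.73 (SE 0.076, adjusted p = 3.8e-17) in Hepa1-6 and 2.91 (SE 0.080, adjusted p = 9.6e-14) in E.G7. Hepa1-6 was 3.51-fold higher (adjusted p = 7.7e-11) than E.G7.

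Slc2a3 and Slc16a1 had the other order of the tumours. Slc16a1 encodes MCT1, which carries lactate and pyruvate in either direction. Slc16a1 had 131, 124, 132 and 133 CPM in Hepa1-6 libraries and 333 and 302 CPM in E.G7 libraries, against 43.0, 49.3, 49.6 and 50.9 CPM in LN libraries. The E.G7 libraries were highest, 6.59-fold higher (adjusted p = 5.3e-14) than LN, while Hepa1-6 was 2.70-fold higher (adjusted p = 7.2e-12) than LN and 2.44-fold lower (adjusted p = 5.5e-10) than E.G7. Slc2a3 encodes GLUT3, a glucose importer of high affinity. Slc2a3 had 216, 207, 210.1 and 204 CPM in Hepa1-6 libraries and 312 and 299.7 CPM in E.G7 libraries, against 111, 117, 126 and 123 CPM in LN libraries. Its log2 fold change against LN was 0.81 (SE 0.052, adjusted p = 9.2e-10) in Hepa1-6 and 1.36 (SE 0.061, adjusted p = 2.3e-11) in E.G7, and Hepa1-6 was 1.46-fold lower (adjusted p = 2.0e-06) than E.G7. No groups overlapped for either gene. Liver cells take up glucose through Slc2a2, which averaged 0.0306 CPM in Hepa1-6 libraries and 0.222 CPM in E.G7 libraries, against 0.263 CPM in LN libraries and had too few counts to be tested. Among the hepatoma and hepatocyte markers, Ttr averaged 0.0206 CPM and Alb 370.4 CPM in Hepa1-6 libraries. Which cells the transport transcripts came from was not tested.

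The enzymes of the glycolytic chain rose together. Of the 16, 14 rose and 1 (Ldhb) fell in each tumour, with a median log2 fold change of 1.88 in Hepa1-6 and 1.47 in E.G7. Their counts made up 1.43% ± 0.016 of all counts in Hepa1-6 (SD, n = 4) and 1.30% ± 0.011 in E.G7 (SD, n = 2), against 0.453% ± 0.020 in LN (SD, n = 4). The enzymes that did not pass the test were Pfkm in Hepa1-6 (adjusted p = 0.233) and Hk1 in E.G7 (adjusted p = 0.0553).

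Hexokinase traps glucose inside the cell, and its isozyme Hk2 is the form known to be induced by HIF and by T cell activation. Hk2 (chr6:82725025-82774454, minus strand) had 84.9, 98.01, 91.8 and 102 CPM in Hepa1-6 libraries and 44.0 and 40.0 CPM in E.G7 libraries, against 5.10, 4.63, 4.26 and 5.75 CPM in LN libraries. The groups did not overlap, and the log2 fold change against LN was 4.25 (SE 0.10, adjusted p = 4.0e-15) in Hepa1-6 and 3.09 (SE 0.11, adjusted p = 1.8e-12) in E.G7. The housekeeping isozyme Hk1 had 315, 309.7, 290.3 and 293 CPM in Hepa1-6 libraries and 220.4 and 188 CPM in E.G7 libraries, against 167, 182, 186 and 192 CPM in LN libraries. Hk1 was 1.66-fold higher (adjusted p = 2.0e-08) in Hepa1-6 than in LN and 1.48-fold higher (adjusted p = 1.2e-05) than in E.G7, while the E.G7 and LN libraries overlapped. Hk1 passed in E.G7 against LN under RLE scaling, scaling by pan T cell genes, DESeq2, no filter, with only the groups compared in the fit, and without LN replicate 4 or E.G7 replicate 2 (adjusted p = 1.7e-04 to 0.0438). Outside the 34 genes, Hk3, which is expressed mainly in myeloid cells, averaged 122 CPM in Hepa1-6 libraries and 4.64 CPM in E.G7 libraries, against 1.10 CPM in LN libraries.

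The steps from glucose 6-phosphate to triose phosphates followed the same direction. Gpi1, which isomerises glucose 6-phosphate, had 934, 915, 957 and 961 CPM in Hepa1-6 libraries and 741 and 794 CPM in E.G7 libraries, against 299, 326, 312 and 312 CPM in LN libraries, and it was 3.02-fold higher in Hepa1-6 and 2.46-fold higher in E.G7 than in LN. Phosphofructokinase is the committed step, and 2 of its 3 isozymes rose in both tumours. Pfkp, the platelet form, had 664 to 706 CPM in Hepa1-6 libraries and 598 to 656 CPM in E.G7 libraries, against 223 to 230.1 CPM in LN libraries, and Pfkl, the liver form, had 399 to 439.9 CPM in Hepa1-6 libraries and 328 to 378 CPM in E.G7 libraries, against 165 to 197 CPM in LN libraries. Pfkp was 3.03-fold higher in Hepa1-6 and 2.78-fold higher in E.G7 than in LN, and Pfkl was 2.39-fold higher in Hepa1-6 and 1.97-fold higher in E.G7. Pfkm, the muscle form, had 18.5, 18.2, 14.0 and 17.8 CPM in Hepa1-6 libraries and 25.5 and 24.2 CPM in E.G7 libraries, against 18.1, 16.5, 20.8 and 21.1 CPM in LN libraries. Hepa1-6 and LN overlapped for Pfkm, and E.G7 was 1.30-fold higher (adjusted p = 0.0265) than LN, a call lost without LN replicate 1 or 2 or either E.G7 library (adjusted p = 0.0568 to 0.139) and under upper-quartile scaling and a filter at 10 CPM (adjusted p = 0.115 and 0.0848).

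Aldolase splits the sugar, and triose phosphate isomerase interconverts the products. Aldoa, the aldolase of muscle and most other cells, had 2356, 2311, 2327 and 2315 CPM in Hepa1-6 libraries and 1229 and 1334 CPM in E.G7 libraries, against 415, 440.5, 395 and 447 CPM in LN libraries. Its libraries did not overlap between groups, and it was 5.48-fold higher in Hepa1-6 and 3.02-fold higher in E.G7 than in LN. Aldoc, the brain form, was far lower in level, with 32.0 to 39.0 CPM in Hepa1-6 libraries and 23.4 to 25.2 CPM in E.G7 libraries, against 3.13 to 7.06 CPM in LN libraries, and rose 6.56-fold in Hepa1-6 and 4.57-fold in E.G7. Tpi1 (chr6:124810586-124814296, minus strand) had 1325, 1344, 1392 and 1480.5 CPM in Hepa1-6 libraries and 806 and 841 CPM in E.G7 libraries, against 85.9, 90.7, 87.1 and 90.4 CPM in LN libraries. Of the enzymes, Tpi1 had the second largest fold against LN in Hepa1-6, after Hk2, and the largest in E.G7, with log2 fold changes of 3.97 (SE 0.051, adjusted p = 4.5e-18) and 3.22 (SE 0.054, adjusted p = 6.1e-16).

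The steps from triose phosphate to pyruvate, which yield ATP, rose in both tumours without exception among their 5 enzymes in the 34 genes. Gapdh, often used as a reference gene in qPCR, had 284, 279, 289 and 304 CPM in Hepa1-6 libraries and 193 and 207 CPM in E.G7 libraries, against 73.4, 76.0, 71.7 and 68.6 CPM in LN libraries. It was 3.99-fold higher (adjusted p = 1.5e-14) in Hepa1-6 and 2.76-fold higher (adjusted p = 1.0e-11) in E.G7 than in LN. Pgk1, a known HIF target, had 600.0, 591, 593 and 635 CPM in Hepa1-6 libraries and 581 and 572 CPM in E.G7 libraries, against 112, 125, 107 and 119 CPM in LN libraries. Pgk1 was 5.22-fold higher in Hepa1-6 and 4.98-fold higher in E.G7 than in LN, and the tumours did not differ past the threshold (log2 fold change 0.07 (SE 0.062, adjusted p = 0.402)). Pgam1, which moves the phosphate of phosphoglycerate, had 376 to 388 CPM in Hepa1-6 libraries and 302 to 317 CPM in E.G7 libraries, against 51.1 to 60.0 CPM in LN libraries, and was 6.98-fold higher in Hepa1-6 and 5.66-fold higher in E.G7 than in LN. Eno1, the enolase of most tissues, had 1854 to 1966 CPM in Hepa1-6 libraries and 1801 to 1847 CPM in E.G7 libraries, against 723 to 839.6 CPM in LN libraries, and was 2.45-fold higher in Hepa1-6 and 2.32-fold higher in E.G7 than in LN. Pkm, which encodes the M1 and M2 pyruvate kinases, had 3279.8, 3180.2, 3237 and 3185 CPM in Hepa1-6 libraries and 2222 and 2151 CPM in E.G7 libraries, against 748, 848, 760.5 and 882 CPM in LN libraries, and was 3.98-fold higher in Hepa1-6 and 2.70-fold higher in E.G7 than in LN. The liver and red cell pyruvate kinase Pklr averaged 0.288 CPM in Hepa1-6 libraries and 0 CPM in E.G7 libraries, against 0.0482 CPM in LN libraries. Which cells the Pkm transcripts came from was not tested. Several of these genes share sequence with other annotated genes, such as pseudogenes or overlapping genes. Of the 50-base stretches in their GENCODE transcripts, 53.9% for Pgk1, 36.2% for Pgam1, 26.0% for Eno1, 25.8% for Pkm (of whose exon bases 15.3% overlap exons of Gm49759) and 25.1% for Gapdh also occur in other annotated genes. The sources used here do not say how reads that match several genes were counted, so the levels of these genes are uncertain.

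Lactate dehydrogenase changed in opposite directions in its 2 subunits. Ldha (chr7:46841475-46855627, plus strand) encodes the subunit favoured in cells that make lactate, and Ldhb the subunit of heart and other oxidative tissues. Ldha had 2789, 2772, 2938 and 2971 CPM in Hepa1-6 libraries and 3466 and 3510.4 CPM in E.G7 libraries, against 803, 927, 769 and 869 CPM in LN libraries. E.G7 was highest and LN lowest, with no overlap, and the log2 fold change against LN was 1.77 (SE 0.054, adjusted p = 8.1e-14) in Hepa1-6 and 2.05 (SE 0.062, adjusted p = 2.4e-13) in E.G7. Ldhb had 31.7, 28.9, 26.4 and 28.2 CPM in Hepa1-6 libraries and 53.5 and 48.2 CPM in E.G7 libraries, against 83.0, 83.7, 75.2 and 82.9 CPM in LN libraries. The LN libraries were highest and Hepa1-6 lowest, with no overlap, and the log2 fold change against LN was -1.49 (SE 0.074, adjusted p = 3.6e-11) in Hepa1-6 and -0.67 (SE 0.090, adjusted p = 8.6e-06) in E.G7. Of the 50-base stretches of Ldhb, 21.0% also occur in Gm5514.

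**Figure D2:**
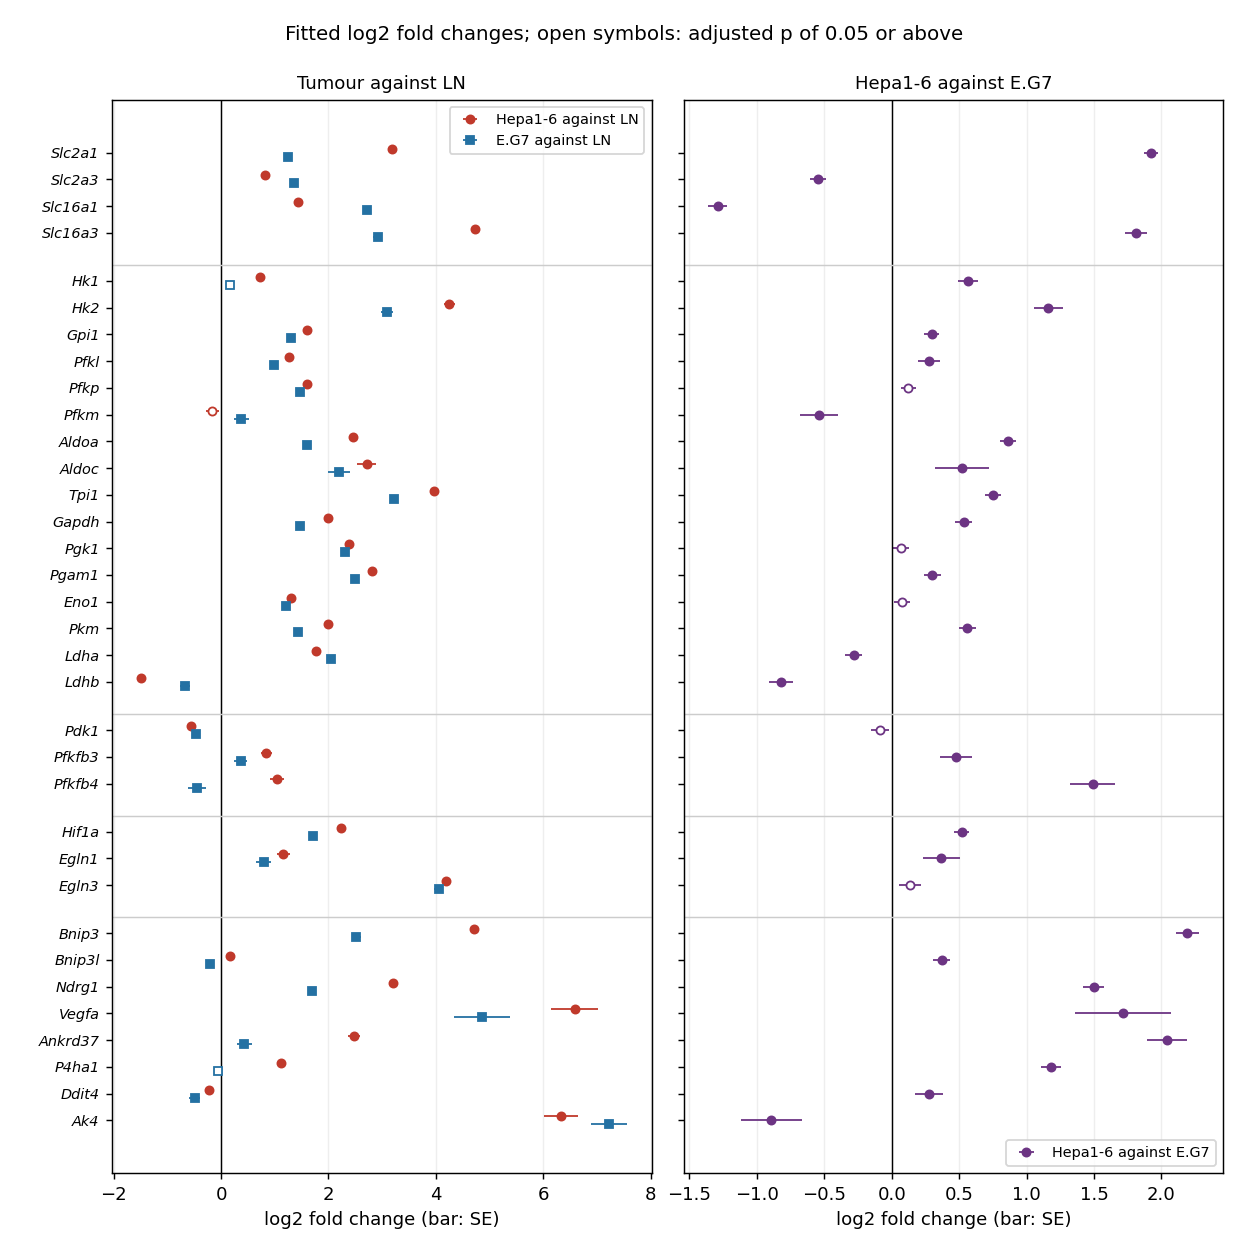
Fitted log2 fold changes of the 34 genes (x axis; bars are SE), Hepa1-6 and E.G7 against LN in the left panel and Hepa1-6 against E.G7 in the right panel; open symbols did not pass an adjusted p of 0.05. Most genes lie right of 0 against LN, Ldhb lies left of 0 in both tumours (-1.49 in Hepa1-6 and -0.67 in E.G7), and the transport genes lie on both sides of 0 between the tumours.

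The 3 regulators of flux did not move as 1 group. In Hepa1-6, 2 rose and 1 fell, and in E.G7, 1 rose and 2 fell. Pdk1 (chr2:71873224-71903858, plus strand) encodes a kinase that shuts pyruvate dehydrogenase and so keeps pyruvate out of mitochondria, and it is a known HIF target. Pdk1 had 132, 125, 126 and 128 CPM in Hepa1-6 libraries and 145 and 126 CPM in E.G7 libraries, against 194, 185, 185 and 189.6 CPM in LN libraries. Both tumour groups lay below LN without overlap, and the log2 fold change was -0.56 (SE 0.053, adjusted p = 1.3e-07) in Hepa1-6 and -0.48 (SE 0.066, adjusted p = 1.4e-05) in E.G7. Hepa1-6 and E.G7 overlapped. Pfkfb3 and Pfkfb4 encode enzymes that make and break fructose 2,6-bisphosphate, the strongest activator of phosphofructokinase. Pfkfb3 had 57.9, 66.7, 56.1 and 59.3 CPM in Hepa1-6 libraries and 42.8 and 43.2 CPM in E.G7 libraries, against 34.6, 26.5, 36.4 and 36.2 CPM in LN libraries, and was 1.79-fold higher (adjusted p = 1.1e-06) in Hepa1-6 and 1.29-fold higher (adjusted p = 0.0132) in E.G7 than in LN. Pfkfb4 had 17.2, 20.2, 18.6 and 22.03 CPM in Hepa1-6 libraries and 6.61 and 7.25 CPM in E.G7 libraries, against 10.4, 10.2, 9.52 and 7.69 CPM in LN libraries. Pfkfb4 was 2.06-fold higher (adjusted p = 2.3e-06) in Hepa1-6 than in LN, 1.36-fold lower (adjusted p = 0.0272) in E.G7 than in LN, and 2.81-fold higher (adjusted p = 1.9e-06) in Hepa1-6 than in E.G7. The E.G7 calls against LN ended for both genes without E.G7 replicate 1 (adjusted p = 0.0572 for Pfkfb3 and 0.174 for Pfkfb4) and without E.G7 replicate 2 (adjusted p = 0.0696 for Pfkfb3 and 0.0730 for Pfkfb4), and for Pfkfb4 also without LN replicate 1 (adjusted p = 0.0551). They also ended under upper-quartile scaling and a filter at 10 CPM for Pfkfb3 (adjusted p = 0.0836 and 0.0556), and under scaling by pan T cell genes, with no filter and with only the groups compared in the fit for Pfkfb4 (adjusted p = 0.279, 0.0556 and 0.0507).

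The transcripts of the HIF-1 alpha subunit and of both measured oxygen sensors rose in each tumour. Hif1a (chr12:73901375-73947530, plus strand) had 1283, 1299.8, 1347 and 1317 CPM in Hepa1-6 libraries and 975 and 856 CPM in E.G7 libraries, against 285, 274, 269.7 and 285 CPM in LN libraries. The groups did not overlap, and the log2 fold change against LN was 2.24 (SE 0.048, adjusted p = 1.1e-15) in Hepa1-6 and 1.72 (SE 0.054, adjusted p = 4.2e-13) in E.G7. The protein of Hif1a is controlled mainly by its breakdown, which these counts do not measure. Egln3 encodes PHD3, a prolyl hydroxylase that marks HIF-1 alpha for breakdown and is itself a strong HIF target. Egln3 (chr12:54178981-54203860, minus strand) had 102, 114, 117 and 114 CPM in Hepa1-6 libraries and 99.8 and 103.1 CPM in E.G7 libraries, against 6.37, 5.44, 6.07 and 6.56 CPM in LN libraries. Both tumours were far above LN, with log2 fold changes of 4.19 (SE 0.080, adjusted p = 2.6e-16) in Hepa1-6 and 4.05 (SE 0.086, adjusted p = 5.7e-15) in E.G7, while Hepa1-6 and E.G7 overlapped and did not differ past the threshold (log2 fold change 0.14 (SE 0.080, adjusted p = 0.186)). Egln1 encodes PHD2, the main oxygen sensor in most cells. Egln1 had 32.0, 37.1, 38.1 and 38.2 CPM in Hepa1-6 libraries and 26.3 and 30.0 CPM in E.G7 libraries, against 18.9, 15.6, 17.6 and 12.9 CPM in LN libraries, and was 2.24-fold higher (adjusted p = 2.0e-07) in Hepa1-6 and 1.73-fold higher (adjusted p = 1.1e-04) in E.G7 than in LN.

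The 8 HIF targets outside glycolysis varied most among themselves. In Hepa1-6, 7 rose and 1 (Ddit4) fell, with a median log2 fold change of 2.84. In E.G7, 5 rose, 2 (Bnip3l and Ddit4) fell and P4ha1 did not pass, with a median of 1.06. Bnip3 (chr7:138890836-138909519, minus strand) encodes a receptor that hands mitochondria over to autophagy. Bnip3 had 193, 185, 194 and 197 CPM in Hepa1-6 libraries and 44.3 and 39.7 CPM in E.G7 libraries, against 7.08, 6.67, 7.75 and 7.81 CPM in LN libraries. Its groups did not overlap, and the log2 fold change against LN was 4.71 (SE 0.074, adjusted p = 3.0e-17) in Hepa1-6 and 2.52 (SE 0.080, adjusted p = 4.8e-13) in E.G7. Bnip3 shares 47.2% of its 50-base stretches with other annotated genes, so its level is uncertain. Its relative Bnip3l, also a mitophagy receptor, had 182, 199, 202 and 192 CPM in Hepa1-6 libraries and 152 and 147 CPM in E.G7 libraries, against 169, 182, 168 and 169 CPM in LN libraries. Hepa1-6 and LN overlapped, although Hepa1-6 was 1.13-fold higher (adjusted p = 0.00784) than LN, and E.G7 was 1.15-fold lower (adjusted p = 0.0124) than LN. The Hepa1-6 call ended and the sign turned under upper-quartile scaling (log2 fold change -0.0092), as did the E.G7 call under scaling by pan T cell genes (0.029), and the E.G7 call also ended without E.G7 replicate 2 (adjusted p = 0.103). With no filter on low counts both calls ended (adjusted p = 0.0571 in Hepa1-6 and 0.0678 in E.G7), and with a filter at 10 CPM that in Hepa1-6 (adjusted p = 0.0750).

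Ndrg1, a stress-induced gene, had 306, 294, 296 and 278 CPM in Hepa1-6 libraries and 101 and 107 CPM in E.G7 libraries, against 29.2, 32.1, 31.6 and 35.5 CPM in LN libraries. The groups did not overlap, and Ndrg1 was 9.15-fold higher (adjusted p = 6.3e-16) in Hepa1-6 and 3.24-fold higher (adjusted p = 1.3e-11) in E.G7 than in LN. Ankrd37, a small HIF target with ankyrin repeats, had 40.7, 38.0, 36.3 and 46.0 CPM in Hepa1-6 libraries and 9.10 and 10.4 CPM in E.G7 libraries, against 6.60, 7.56, 8.35 and 6.41 CPM in LN libraries. Ankrd37 was 5.56-fold higher (adjusted p = 2.2e-11) in Hepa1-6 and 1.35-fold higher (adjusted p = 0.0167) in E.G7 than in LN, and the E.G7 call ended without E.G7 replicate 2, under upper-quartile scaling and with a filter at 10 CPM (adjusted p = 0.157, 0.0739 and 0.0529). Exons of Lrp2bp and Ufsp2 overlap 26.4% of the exon bases of Ankrd37, and the sources used here do not give the strand setting of the count. P4ha1 encodes a subunit of the enzyme that hydroxylates collagen. P4ha1 had 254, 243, 231 and 255 CPM in Hepa1-6 libraries and 118 and 99.7 CPM in E.G7 libraries, against 113, 111, 115 and 112 CPM in LN libraries. Hepa1-6 lay above both other groups, 2.18-fold higher (adjusted p = 6.3e-11) than LN and 2.26-fold higher (adjusted p = 2.9e-09) than E.G7, while E.G7 and LN overlapped.

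The genes lowest in LN were Vegfa and Ak4. Vegfa, the growth factor of blood vessels, had 6.17, 8.11, 6.73 and 7.18 CPM in Hepa1-6 libraries and 1.41 and 2.87 CPM in E.G7 libraries, against 0.0395, 0, 0.0402 and 0.194 CPM in LN libraries. The LN values stand for raw counts of 1, 0, 1 and 5, so the fold rests on a few reads. The log2 fold change against LN was 6.58 (SE 0.44, adjusted p = 1.7e-09) in Hepa1-6 and 4.87 (SE 0.52, adjusted p = 7.6e-07) in E.G7. Ak4, a mitochondrial adenylate kinase, had 20.9, 20.1, 21.6 and 18.1 CPM in Hepa1-6 libraries and 38.8 and 36.1 CPM in E.G7 libraries, against 0, 0.154, 0.241 and 0.583 CPM in LN libraries, with LN counts of 0, 4, 6 and 15. E.G7 was highest for Ak4 and LN lowest, without overlap, and the log2 fold change against LN was 6.33 (SE 0.32, adjusted p = 2.8e-10) in Hepa1-6 and 7.23 (SE 0.33, adjusted p = 2.2e-10) in E.G7. Without LN replicate 4, which held most of the LN reads of both genes, the log2 fold change against LN was 7.82 in Hepa1-6 and 6.10 in E.G7 for Vegfa, and 7.21 in Hepa1-6 and 8.10 in E.G7 for Ak4. Without E.G7 replicate 2, that of Vegfa in E.G7 was 4.27, and limma-voom gave 7.04 in Hepa1-6 and 7.94 in E.G7 for Ak4. Ddit4, which encodes the mTORC1 inhibitor REDD1, had 55.9, 53.2, 43.5 and 50.8 CPM in Hepa1-6 libraries and 38.7 and 45.4 CPM in E.G7 libraries, against 56.2, 63.4, 58.3 and 58.4 CPM in LN libraries. Both tumours lay below LN, 1.16-fold lower (adjusted p = 0.0317) in Hepa1-6 and 1.41-fold lower (adjusted p = 7.9e-04) in E.G7. The Hepa1-6 call ended without LN replicate 2 or without Hepa1-6 replicate 3 or 4 (adjusted p = 0.0757, 0.122 and 0.0512) and under scaling by pan T cell genes, RLE scaling and DESeq2 (adjusted p = 0.857, 0.0565 and 0.0559).

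Within families of isozymes and paralogs, the make-up of the mRNA differed between Hepa1-6 and LN for most of the shares tested. The E.G7 shares have no call. Each share below is the part of a family's counts per kilobase of gene length held by 1 gene, as mean ± SD (n = 4, 2 and 4). Gene length is the number of exon bases deposited with the counts, such as 13401 for Pfkp, 6675 for Pfkl and 3340 for Pfkm. It is the same in all groups, but the level of a share depends on the annotation. Pfkp had more counts than Pfkl in every group and still the smaller share. Ldha held 97.9% ± 0.211 in Hepa1-6 and 97.0% ± 0.239 in E.G7, against 83.1% ± 0.785 in LN of the Ldha and Ldhb transcripts. Hk2 held 30.8% ± 2.21 in Hepa1-6 and 22.8% ± 0.783 in E.G7, against 3.74% ± 0.487 in LN of the Hk1 and Hk2 transcripts. The share of Slc16a3 in Slc16a3 and Slc16a1 was 65.9, 66.9, 64.3 and 64.0% in Hepa1-6 and 17.5 and 18.6% in E.G7, against 16.3, 17.7, 15.9 and 14.4% in LN, and the share of Slc2a1 in Slc2a1 and Slc2a3 was 85.9, 86.6, 86.4 and 86.8% in Hepa1-6 and 53.2 and 53.7% in E.G7, against 57.0, 55.0, 54.2 and 54.9% in LN. In these transporter families the Hepa1-6 mean differed from the LN mean by 49.2 percentage points for Slc16a3 and 31.2 for Slc2a1, and the E.G7 mean by 1.93 points for Slc16a3 and -1.80 for Slc2a1. Egln3 held 80.6% ± 0.425 in Hepa1-6 and 83.0% ± 0.991 in E.G7, against 33.9% ± 4.53 in LN of the Egln1 and Egln3 transcripts, and Bnip3 held 62.8% ± 1.45 in Hepa1-6 and 32.3% ± 1.19 in E.G7, against 6.78% ± 0.675 in LN of the Bnip3 and Bnip3l transcripts. Pfkp held 42.4% ± 0.887 in Hepa1-6 and 43.7% ± 0.691 in E.G7, against 34.2% ± 1.76 in LN of the phosphofructokinase transcripts.

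Of the 10 shares, these 7 differed between Hepa1-6 and LN in an exact two-sided permutation test (p = 0.0286 for each, the smallest that 4 against 4 libraries allow, 0.0408 after adjustment over the 10). The shares of Pfkl, Aldoa and Pfkfb3 did not pass (exact p = 0.257, 0.286 and 0.429). Their means were 53.3% ± 0.795 in Hepa1-6 and 49.3% ± 0.996 in E.G7, against 54.2% ± 1.24 in LN for Pfkl, 98.3% ± 0.147 in Hepa1-6 and 97.9% ± 0.0155 in E.G7, against 98.6% ± 0.404 in LN for Aldoa and 66.5% ± 2.29 in Hepa1-6 and 80.0% ± 0.933 in E.G7, against 69.3% ± 5.30 in LN for Pfkfb3. With 2 E.G7 libraries the test cannot go below an exact p of 0.133, so the E.G7 shares have no call.

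**Figure D3:**
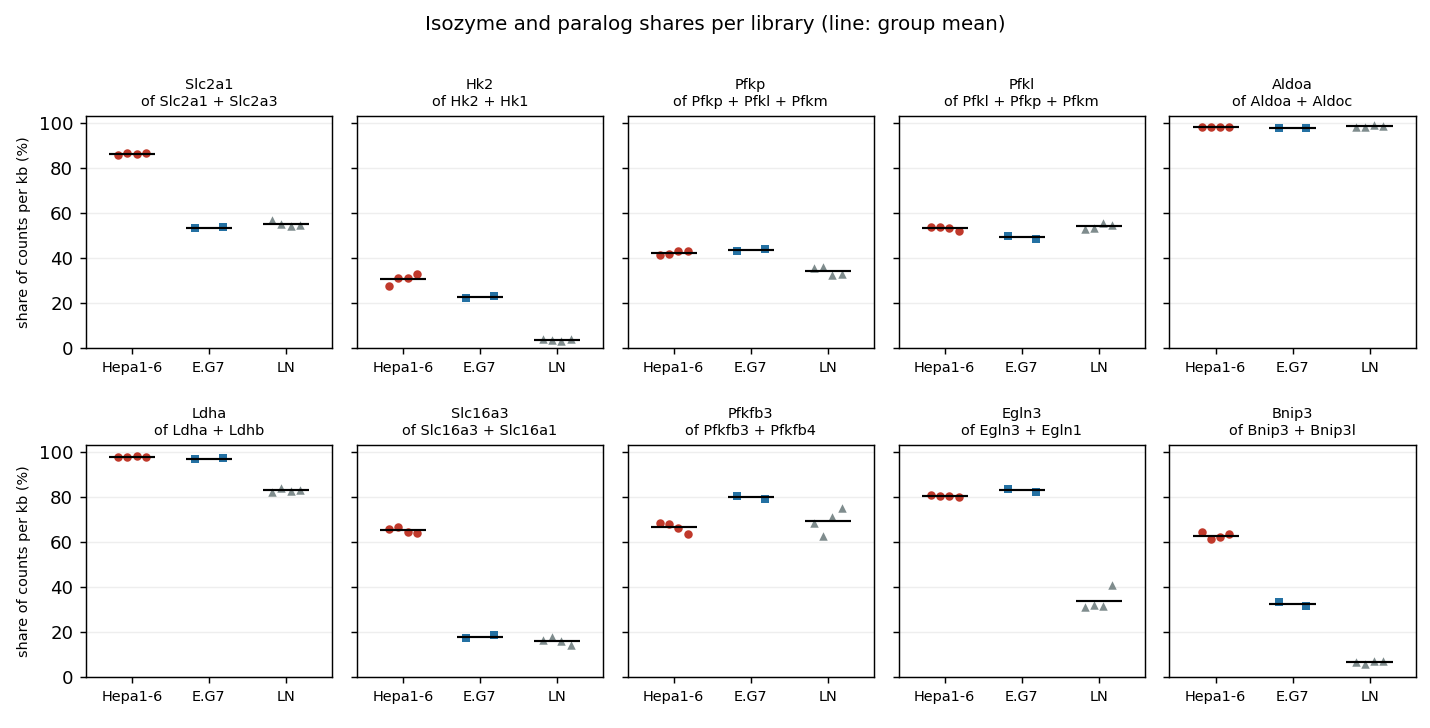
Share (%) of a family's counts per kilobase held by 1 gene, for 10 genes of 9 families, in each library (symbols; lines are group means) of Hepa1-6, E.G7 and LN. The shares of Hk2, Ldha, Egln3 and Bnip3 are higher in both tumours than in LN, while those of Slc2a1 and Slc16a3 stand apart in Hepa1-6 (86.4% and 65.3%) and are close in E.G7 (53.5% and 18.01%) and LN (55.3% and 16.1%).

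On a scale per length (RPKM, the CPM divided by gene length in kilobases), Ldha was the highest of the 34 genes in all 3 groups, at 866 in Hepa1-6 and 1054 in E.G7, against 254 in LN. The order between genes is uncertain, since it depends on the annotated lengths and on how reads that match several genes were counted, which is not known. Pkm was second, at 644 in Hepa1-6 and 437 in E.G7, against 162 in LN. Tpi1 stood higher in the order in both tumours than in LN, at 503 in Hepa1-6 and 299 in E.G7, against 32.2 in LN, which put it 4th, 5th and 11th of the 34. Ldhb was 25th in Hepa1-6 and 18th in E.G7, against 5th in LN, at 18.4 in Hepa1-6 and 32.4 in E.G7, against 51.7 in LN. Slc2a1 stood at 184 in Hepa1-6 and 48.5 in E.G7, against 20.3 in LN, and Hif1a at 222 in Hepa1-6 and 155 in E.G7, against 47.2 in LN.

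The direct comparison of the tumours showed a higher level in Hepa1-6 for most of the genes. Of the 34, 23 were higher and 6 were lower in Hepa1-6 than in E.G7, where 26.1% of all genes tested were higher and 19.6% lower (45.6% in either direction). Libraries of Hepa1-6 lay wholly above those of E.G7 for 25 genes and wholly below for 6, beside 31.9% and 26.2% of all genes, and the median log2 fold change was 0.43 beside 0.06 for all genes. The sizes were smaller than against LN: 9 genes were called and at least 2-fold higher, beside 14.5% of all genes, and 1 (Slc16a1) was called and at least 2-fold lower, beside 6.38%. The largest differences were in HIF targets and transport. Hepa1-6 exceeded E.G7 4.57-fold for Bnip3 (adjusted p = 7.3e-12), 4.12-fold for Ankrd37 (adjusted p = 1.6e-08), 3.28-fold for Vegfa (adjusted p = 9.3e-04) and 2.82-fold for Ndrg1 (adjusted p = 3.0e-10). The enzymes differed less: 10 of 16 were higher and 3 (Pfkm, Ldha and Ldhb) lower, with a median log2 fold change of 0.30 and 2.24-fold for Hk2 as the largest. Aldoa was 1.82-fold higher and Tpi1 1.68-fold higher in Hepa1-6 than in E.G7. Genes lower in Hepa1-6 were, beside Slc16a1, Ldhb (1.77-fold lower (adjusted p = 1.2e-06)), Ak4 (1.86-fold lower (adjusted p = 0.00510)), Slc2a3, Pfkm and Ldha (1.22-fold lower (adjusted p = 0.00163)). Egln3, Eno1, Pdk1, Pfkp and Pgk1 did not pass the test. Without E.G7 replicate 2 the log2 fold change of Vegfa was 2.31, in place of 1.72. The Aldoc call (adjusted p = 0.0441) ended without any 1 Hepa1-6 library, and the Egln1 call (adjusted p = 0.0401) without Hepa1-6 replicate 2, 3 or 4. The Ddit4 call (adjusted p = 0.0417, with overlapping libraries) ended without Hepa1-6 replicate 1, 2 or 4. The Aldoc and Egln1 calls also ended without either E.G7 library, and the Ddit4 call without E.G7 replicate 1 (log2 fold change 0.16). The calls of Aldoc, Egln1 and Ddit4 also ended under upper-quartile scaling and with no filter on low counts. Egln1 and Ddit4 also lost theirs under scaling by pan T cell genes, and Ddit4 under RLE scaling and with only the groups compared in the fit. The calls of Ak4 and Pfkl ended where 1 E.G7 library was left. The log2 fold change was -0.85 for Ak4 without E.G7 replicate 1 and 0.17 for Pfkl without E.G7 replicate 2. Hepatoma markers were 2778 to 2821 CPM in Hepa1-6 libraries and 118 to 122 CPM in E.G7, where Trf alone made up 115 CPM, and the part of these markers in these differences was not tested.

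Other genes of the same pathways were counted from lists of known members. Of all genes tested, 37.0% rose and 31.1% fell in Hepa1-6, and 32.7% rose and 27.2% fell in E.G7. Of 28 further HIF target genes, 24 rose and 1 fell in Hepa1-6 (median log2 fold change 1.66), and 18 rose and 3 fell in E.G7 (median 1.33). Bhlhe40, a transcription factor induced by HIF and by T cell receptor signals, had 1754 ± 32.1 CPM in Hepa1-6 against 72.5 ± 5.47 CPM in LN, 24.2-fold higher (adjusted p = 4.8e-18), and was 23.1-fold higher in E.G7 than in LN. Hmox1, which breaks down haem and is abundant in macrophages, had 679 ± 43.3 CPM in Hepa1-6 against 3.06 ± 0.546 CPM in LN, 222-fold higher (adjusted p = 4.9e-18). Ero1l, an oxidase of the endoplasmic reticulum, had 360.2 ± 11.3 CPM in Hepa1-6 against 39.2 ± 2.69 CPM in LN, 9.18-fold higher (adjusted p = 2.0e-16). In E.G7, the transferrin receptor Tfrc had 414 ± 41.6 CPM in E.G7 against 46.5 ± 3.50 CPM in LN, 8.91-fold higher (adjusted p = 5.3e-14), and Nfil3, a transcription factor, had 224 ± 5.36 CPM in E.G7 against 15.8 ± 2.67 CPM in LN, 14.2-fold higher (adjusted p = 1.4e-13). Car12, a carbonic anhydrase, was the 1 gene of the list that fell in Hepa1-6, with 5.29 ± 0.922 CPM in Hepa1-6 against 18.3 ± 2.03 CPM in LN, 3.45-fold lower (adjusted p = 1.5e-08). Between the tumours, Tfrc had 96.6 ± 6.83 CPM in Hepa1-6 against 414 ± 41.6 CPM in E.G7, 4.29-fold lower (adjusted p = 9.7e-12).

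Of the 7 HIF factors and further oxygen sensors, 3 rose and 1 fell in each tumour. Beside this, 37.0% of all genes rose and 31.1% fell in Hepa1-6, and 32.7% and 27.2% in E.G7. The median log2 fold change of the 7 was 0.05 in Hepa1-6 and 0.11 in E.G7, beside 0.04 and 0.01 for all genes tested. Among the 7, the oxygen sensors Egln2 and Hif1an were called in neither tumour. Egln2 averaged 71.8 CPM in Hepa1-6 libraries and 75.1 CPM in E.G7 libraries, against 69.5 CPM in LN libraries. Hif1an averaged 71.3 CPM in Hepa1-6 libraries and 62.3 CPM in E.G7 libraries, against 73.6 CPM in LN libraries. Epas1, which encodes HIF-2 alpha and is high in endothelium and macrophages, had 35.7 ± 1.94 CPM in Hepa1-6 against 2.17 ± 0.730 CPM in LN, 16.4-fold higher (adjusted p = 2.0e-11). Vhl, the ligase subunit that binds hydroxylated HIF, had 58.9 ± 2.48 CPM in Hepa1-6 against 30.5 ± 3.22 CPM in LN, 1.93-fold higher (adjusted p = 2.9e-08). Hif3a fell in Hepa1-6, with 1.02 ± 0.173 CPM in Hepa1-6 against 4.84 ± 0.990 CPM in LN, 4.73-fold lower (adjusted p = 3.5e-07), and Arnt, the beta subunit of HIF, fell in E.G7, with 84.8 ± 5.23 CPM in E.G7 against 109 ± 7.59 CPM in LN, 1.28-fold lower (adjusted p = 0.00239).

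Among 13 genes of pyruvate entry to mitochondria, 8 rose and 2 fell in Hepa1-6, beside 37.0% and 31.1% of all genes. In E.G7, 10 rose and 1 fell, beside 32.7% and 27.2% of all genes. Between the tumours, 9 of the 13 were lower in Hepa1-6 than in E.G7, beside 19.6% of all genes. Dld, a shared subunit of pyruvate dehydrogenase, had 178 ± 6.86 CPM in E.G7 against 72.9 ± 2.83 CPM in LN, 2.44-fold higher (adjusted p = 7.2e-10), and between the tumours 85.3 ± 7.31 CPM in Hepa1-6 against 178 ± 6.86 CPM in E.G7, 2.09-fold lower (adjusted p = 1.4e-08). Pdk3, a relative of Pdk1, rose in both tumours, with 71.8 ± 3.06 CPM in Hepa1-6 against 47.7 ± 4.10 CPM in LN, 1.51-fold higher (adjusted p = 1.4e-06), and with 112 ± 2.75 CPM in E.G7 against 47.7 ± 4.10 CPM in LN, 2.35-fold higher (adjusted p = 2.2e-09). Pdk2 fell in both, with 15.9 ± 2.55 CPM in Hepa1-6 against 26.9 ± 2.56 CPM in LN, 1.69-fold lower (adjusted p = 1.2e-04), and with 8.48 ± 1.90 CPM in E.G7 against 26.9 ± 2.56 CPM in LN, 3.17-fold lower (adjusted p = 7.8e-07). Pdk4 had 23.3 CPM in Hepa1-6 libraries and 0.2403 CPM in E.G7, against 0.0402 CPM in LN.

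Of 8 genes of the pentose phosphate pathway, which makes NADPH and ribose, 6 rose and 1 fell in Hepa1-6, and 6 rose in E.G7. The counts of this paragraph stand beside 37.0% higher and 31.1% lower of all genes in Hepa1-6, and 32.7% and 27.2% in E.G7. Pgd had 225 ± 5.77 CPM in Hepa1-6 against 84.9 ± 4.01 CPM in LN, 2.65-fold higher (adjusted p = 7.4e-13), and G6pdx, the entry enzyme, had 134 ± 5.43 CPM in Hepa1-6 against 61.4 ± 3.76 CPM in LN, 2.18-fold higher (adjusted p = 2.0e-10). Of 9 genes of glycogen and hexose side paths, 8 rose and 1 fell in Hepa1-6, and 4 rose and 2 fell in E.G7. Ugp2, which makes UDP-glucose, had 257 ± 9.01 CPM in Hepa1-6 against 39.6 ± 2.22 CPM in LN, 6.48-fold higher (adjusted p = 1.1e-15), and between the tumours 257 ± 9.01 CPM in Hepa1-6 against 62.7 ± 0.8291 CPM in E.G7, 4.09-fold higher (adjusted p = 4.4e-12). Of 27 other glycolytic isozymes and transporters, 17 had enough counts to be tested, and 6 rose and 6 fell in Hepa1-6 while 5 rose and 4 fell in E.G7. Adpgk, an ADP-dependent glucokinase, fell in both, with 69.6 ± 1.27 CPM in Hepa1-6 against 156 ± 9.58 CPM in LN, 2.24-fold lower (adjusted p = 1.2e-10), and with 98.5 ± 11.05 CPM in E.G7 against 156 ± 9.58 CPM in LN, 1.58-fold lower (adjusted p = 2.4e-06).

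Of 13 upstream regulators of glycolysis, 5 rose and 7 fell in Hepa1-6, and 4 rose and 7 fell in E.G7. Txnip, which restrains glucose uptake and is itself induced by glucose, had 284 ± 11.2 CPM in Hepa1-6 against 916 ± 31.0 CPM in LN, 3.23-fold lower (adjusted p = 1.6e-14), and 271 ± 0.332 CPM in E.G7 against 916 ± 31.0 CPM in LN, 3.38-fold lower (adjusted p = 8.0e-13). Pik3cd, a kinase of antigen receptor signalling, had 342 ± 10.4 CPM in Hepa1-6 against 618 ± 44.5 CPM in LN, 1.81-fold lower (adjusted p = 5.1e-09), and 229.5 ± 30.3 CPM in E.G7 against 618 ± 44.5 CPM in LN, 2.69-fold lower (adjusted p = 4.7e-10). Rheb, the activator of mTORC1, had 113 ± 4.004 CPM in Hepa1-6 against 71.3 ± 5.004 CPM in LN, 1.59-fold higher (adjusted p = 6.4e-08), and 132 ± 0.671 CPM in E.G7 against 71.3 ± 5.004 CPM in LN, 1.85-fold higher (adjusted p = 2.5e-08). Myc fell in Hepa1-6, with 194 ± 11.03 CPM in Hepa1-6 against 276 ± 11.8 CPM in LN, 1.42-fold lower (adjusted p = 3.7e-07). These lists were described by their counts and medians, beside the 37.0% and 31.1% of all genes that rose and fell in Hepa1-6, the 32.7% and 27.2% in E.G7, and the 26.1% and 19.6% that were higher and lower in Hepa1-6 than in E.G7, and no test was made of a list.

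**Figure D4:**
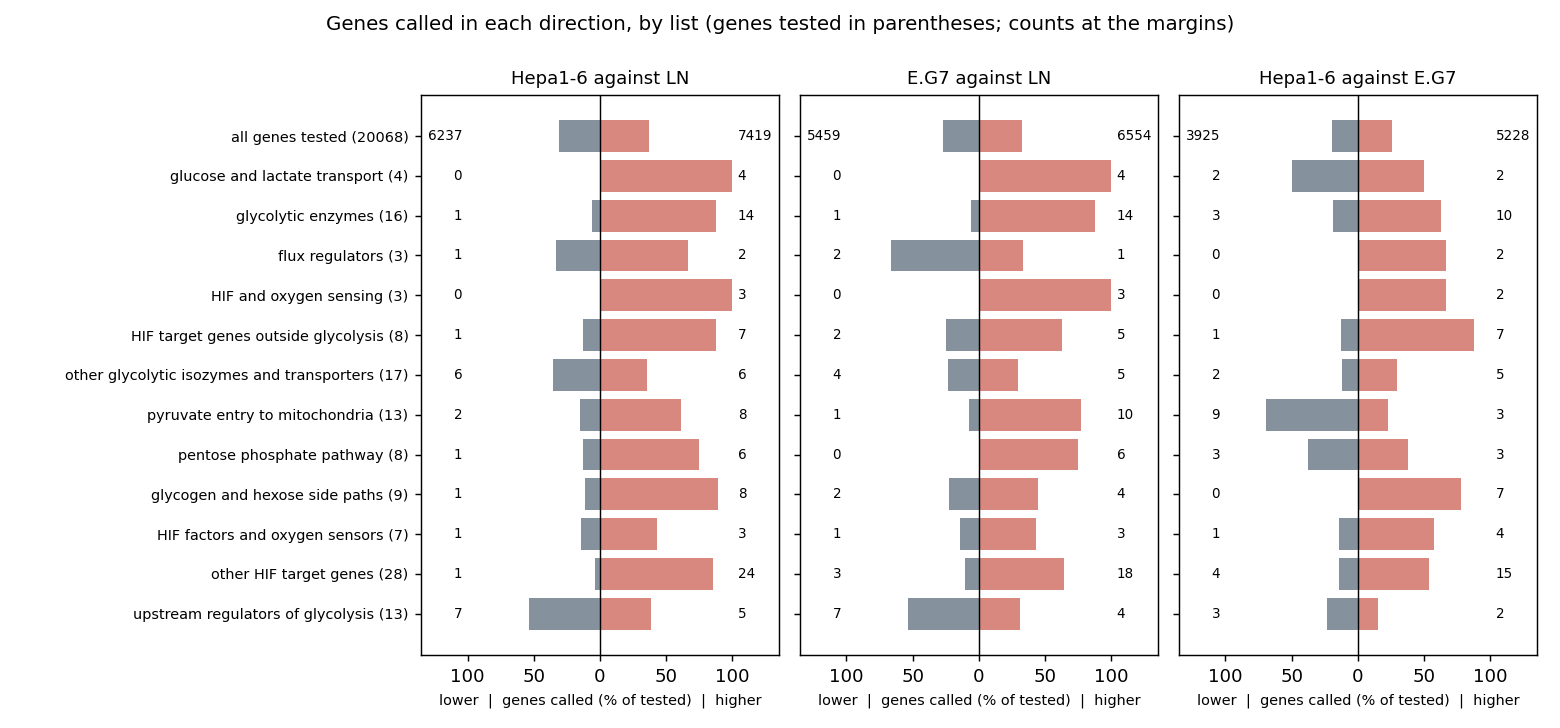
Share of tested genes of each list (% of genes tested, number tested in parentheses) that was called higher (right) or lower (left), for Hepa1-6 against LN, E.G7 against LN and Hepa1-6 against E.G7; numbers at the margins are genes. The first row gives all 20068 genes tested, and the further HIF target genes have 24 higher and 1 lower of 28 in Hepa1-6.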

How the data were processed

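RNA of 10 libraries of sorted mouse Treg cells was sequenced on a BGISEQ-500, per the labels. The authors deposited whole-number read counts per gene for 55291 genes, in the layout of featureCounts per the file headers, and FPKM values for 12930 genes. The submitters' processing notes name HISAT2, featureCounts, Subread, RSEM, DESeq2 and the mm10 build, while their roles, versions, annotation release, strand setting and treatment of multiply mapping reads are not given in the sources used here.

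The deposited counts were tested with edgeR 4.0.16 in R 4.3.3, after filterByExpr (20068 genes) and TMM scaling. A robust quasi-likelihood fit over all 10 libraries, with 1 mean for each group, shared the spread (biological coefficient of variation 13.0%). P-values were adjusted by Benjamini-Hochberg over all genes tested. DESeq2 1.42.0, limma 3.58.1 with voom on the counts and without it on log2(FPKM + 1) and log2(FPKM + 0.1) of the deposited FPKM, other scalings and filters, and leaving out each library were tried as alternatives. Fold changes from log2(FPKM + pseudocount) understate low genes. Shares of isozymes were tested by exact permutation in Python 3.11.15. The SE is the log2 fold change over the root of the quasi-likelihood F.

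Groups came from the sample titles. Replicates of a group differed by more than sampling noise (chi-square per degree of freedom 7.41 to 18.9, over genes whose 2 libraries together had 20 or more counts). Each library was counted as 1 sample, but this difference does not show that the libraries came from separate mice. The members and lists were chosen with earlier results of these data known. Of the lists, the genes named are the 3 with the smallest adjusted p in each direction per list and comparison, of which a part is printed, and the liver, myeloid and hexokinase isozymes and cell markers named for their known place of expression. Egln2 and Hif1an are named as further oxygen sensors. Sequence shared with other annotated genes was counted with GENCODE M21 transcripts. Depth limits precision most for genes of few reads, such as Vegfa and Ak4 in LN.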

Additional observations from a re-analysis of the deposited data

Results flagged for a closer look

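In 4 of 68 sets of 4 libraries (34 genes in Hepa1-6 and in LN), 1 library lay far from the other 3 for its gene, where chance alone gives about 1 in 20 sets. Pfkl was lowest in Hepa1-6 replicate 4 (399 CPM, the others 434 to 439.9 CPM), and Pfkm was lowest in Hepa1-6 replicate 3 (14.0 CPM, the others 17.8 to 18.5 CPM). Ldhb was lowest in LN replicate 3 (75.2 CPM, the others 82.9 to 83.7 CPM), and Bnip3l was highest in LN replicate 2 (182 CPM, the others 168 to 169 CPM).

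The response against LN differed between the tumours for 29 of the 34 genes, beside 45.6% of all genes tested, by the test of the difference itself, which is the comparison of Hepa1-6 with E.G7. The values below are differences of log2 fold changes, Hepa1-6 minus E.G7. Above 1 were 2.19 for Bnip3, 2.04 for Ankrd37, 1.92 for Slc2a1, 1.81 for Slc16a3, 1.72 for Vegfa, 1.498 for Ndrg1, 1.49 for Pfkfb4, 1.18 for P4ha1 and 1.16 for Hk2. Between 0.5 and 1 were 0.86 for Aldoa, 0.75 for Tpi1, 0.56 for Hk1, 0.56 for Pkm, 0.53 for Gapdh, 0.52 for Aldoc and 0.52 for Hif1a. Below 0.5 were 0.48 for Pfkfb3, 0.37 for Bnip3l, 0.37 for Egln1, 0.30 for Pgam1, 0.30 for Gpi1, 0.28 for Pfkl and 0.27 for Ddit4. Lower in Hepa1-6 were -1.29 for Slc16a1, -0.89 for Ak4, -0.82 for Ldhb, -0.55 for Slc2a3, -0.54 for Pfkm and -0.28 for Ldha.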

How the results depend on the processing

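A call or a direction changed under at least 1 alternative for 3 genes in Hepa1-6 against LN (Ddit4, Pfkm and Bnip3l), 7 in E.G7 against LN (Hk1, Pfkm, Pfkfb3, Pfkfb4, Ankrd37, P4ha1 and Bnip3l) and 8 in Hepa1-6 against E.G7 (Ddit4, Aldoc, Egln1, Pfkp, Pgk1, Pdk1, Ak4 and Pfkl), and the causes were not tested. Signs turned, on the log2 scale, for Bnip3l in Hepa1-6 against LN under upper-quartile scaling (-0.0092), for Pfkm in Hepa1-6 against LN (0.036), Bnip3l in E.G7 against LN (0.029) and P4ha1 in E.G7 against LN (0.17) under scaling by pan T cell genes, for P4ha1 in E.G7 against LN without E.G7 replicate 2 (0.065, against -0.17 without E.G7 replicate 1), for Pgk1 between the tumours with only the groups compared in the fit (-0.0065) and for Pdk1 between the tumours without E.G7 replicate 1 (0.012, against -0.19 without E.G7 replicate 2).

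Genes of the 34 that fell in E.G7 numbered 3 in place of 5 under scaling by pan T cell genes and with no filter on low counts. Of all genes, 4277 rose and 4105 fell in Hepa1-6, and 4028 rose in E.G7, when genes under 10 CPM were left out and fewer genes were tested. On log2(FPKM + 1), 3887 fell in Hepa1-6 and 3542 in E.G7, and on log2(FPKM + 0.1), 3864 and 3523. Vegfa was not tested under the 10 CPM filter. Upper-quartile scaling moved the median of all genes by -0.17 in Hepa1-6 and -0.08 in E.G7 against LN, and pan T cell scaling by 0.20 and 0.23. Higher genes made up 54.3% of the calls in Hepa1-6 against LN under TMM, 45.0% under upper-quartile and 65.4% under pan T cell scaling. In E.G7 against LN they made up 54.6% under TMM, 48.3% under upper-quartile and 66.7% under pan T cell scaling. Leaving out 1 library gave 30 of the 34 genes higher and 2 to 3 lower in Hepa1-6 against LN, 25 to 28 and 3 to 5 in E.G7 against LN, and 20 to 21 and 5 to 6 between the tumours. Over all genes it gave 7097 to 7235 higher and 5870 to 6088 lower in Hepa1-6 against LN, 5657 to 6403 and 4086 to 5389 in E.G7 against LN, and 3962 to 5236 and 3007 to 3934 between the tumours. Where it left 1 E.G7 library, that library was assumed to vary like the other groups. Without 1 library, 0 isozyme shares could pass, since 3 against 4 libraries do not allow it. Shares from FPKM were the same, since the deposited FPKM are counts per length.

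The replicate numbers showed no pairing of the libraries: the correlations of deviations between same-numbered libraries lay between -0.08 and 0.05. Those between differently numbered libraries lay between -0.07 and 0.08. With 2 E.G7 libraries the deviations in that group mirror each other, and such correlations cannot exclude a shared animal, batch or day. With the replicate number as a block, the Pfkm call in E.G7 against LN (adjusted p = 0.0521) and the Egln1 call between the tumours (adjusted p = 0.0751) were lost, and no other call of the 34 genes changed.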
